A study of Mus musculus with 6 samples.

Results

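Described here are the genes of the thioredoxin-interacting protein TXNIP, of its arrestin-domain relatives and of the glucose-sensing transcription factors that control it, in fibroblasts moved from normal to low oxygen. The set was chosen by name: Txnip, Arrdc1, Arrdc2, Arrdc3, Arrdc4, Mlx, Mlxip and Mlxipl. All 8 have a row of their own among the 51482 measurements of the deposited table, and 7 of them are among the 14575 that the authors tested. RNA was sequenced from mouse embryonic fibroblasts of WT genotype, immortalised with SV40, whose large T antigen binds p53 and the retinoblastoma proteins. Both groups share that immortalisation. The control group of 3 samples was held at 21% oxygen (normoxia) for 16 h and the other 3 samples at 0.5% oxygen (hypoxia) for the same time.

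TXNIP binds reduced thioredoxin and also promotes removal of glucose transporters from the cell surface, so that cells with more TXNIP take up less glucose. It belongs to the alpha-arrestins, together with the ARRDC proteins, which link membrane cargo to ubiquitin ligases of the NEDD4 family through PPxY motifs. Its gene is switched on by MondoA (encoded by Mlxip) or by the related factor ChREBP (encoded by Mlxipl), each paired with MLX. These pairs respond to phosphorylated glucose and bind carbohydrate response elements, and Txnip and Arrdc4 are their best known targets in fibroblasts.

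Because Txnip and Arrdc4 are textbook MondoA targets, and Arrdc1 had the largest rise in the set, the 250 bases before the transcription start of these genes are shown. The sequences are RefSeq's, build GRCm38.p6, each 5′ to 3′ along its gene's strand. They cover chr3:96557707-96557956 (plus strand) for Txnip, chr7:68749239-68749488 (minus strand) for Arrdc4 and chr2:24935282-24935531 (minus strand) for Arrdc1. Capitals mark a match to the carbohydrate response element in Txnip, an E-box in Arrdc4, and matches to GCGTG, a core sequence of hypoxia response elements, in Arrdc1. Matches to GCGTG on either strand before Txnip and Arrdc4 are left in lower case.
Txnip: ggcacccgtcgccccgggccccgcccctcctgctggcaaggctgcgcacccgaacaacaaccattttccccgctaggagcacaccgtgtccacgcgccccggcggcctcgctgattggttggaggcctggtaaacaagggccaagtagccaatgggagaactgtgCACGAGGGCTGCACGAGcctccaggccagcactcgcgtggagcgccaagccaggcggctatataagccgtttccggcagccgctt
Arrdc4: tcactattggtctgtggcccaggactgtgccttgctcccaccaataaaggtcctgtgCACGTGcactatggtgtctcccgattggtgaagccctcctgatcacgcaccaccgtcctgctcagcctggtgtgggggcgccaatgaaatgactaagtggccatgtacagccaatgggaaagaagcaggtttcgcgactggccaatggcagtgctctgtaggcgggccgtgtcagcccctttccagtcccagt
Arrdc1: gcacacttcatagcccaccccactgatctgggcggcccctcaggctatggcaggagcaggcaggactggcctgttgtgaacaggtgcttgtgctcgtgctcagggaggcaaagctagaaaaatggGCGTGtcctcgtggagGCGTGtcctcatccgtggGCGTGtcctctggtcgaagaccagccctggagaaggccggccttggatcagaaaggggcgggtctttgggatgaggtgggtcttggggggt

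The Txnip promoter held the 17-base sequence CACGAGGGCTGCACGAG, at bases -85 to -69 from the start. It was found with a loose pattern, CACGNG and CNCGNG separated by any 5 bases, searched on both strands, which was present in 92 of 32851 mouse promoter windows of the same length (0.280%). None of the other 10 promoter windows of the set held it, those of Arrdc4 included. Arrdc4 instead carried the E-box CACGTG at bases -193 to -188, a motif found in 6.02% of all windows and also in those of Mlx (-40 to -35) and of 1 of the 2 Mlxipl starts (-98 to -93). Each CACGTG also contains ACGTG on both strands, so these matches are not separate. GCGTG, on either strand, stood 3 times in Arrdc1, at bases -125, -109 and -91, and also 3 times before 1 of the 2 Mlxipl starts. It stood 2 times each before Txnip, Arrdc2 and Mlxip and once before Arrdc4 and each of the 3 Arrdc3 starts. It was present in 28.2% of all windows and ACGTG in 16.6%. CCAAT, the motif of the factor NF-Y, occurred 6 times before Arrdc4 and in 33.8% of windows on either strand. A match is a sequence of letters, and binding was not measured.

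**Figure D1:**
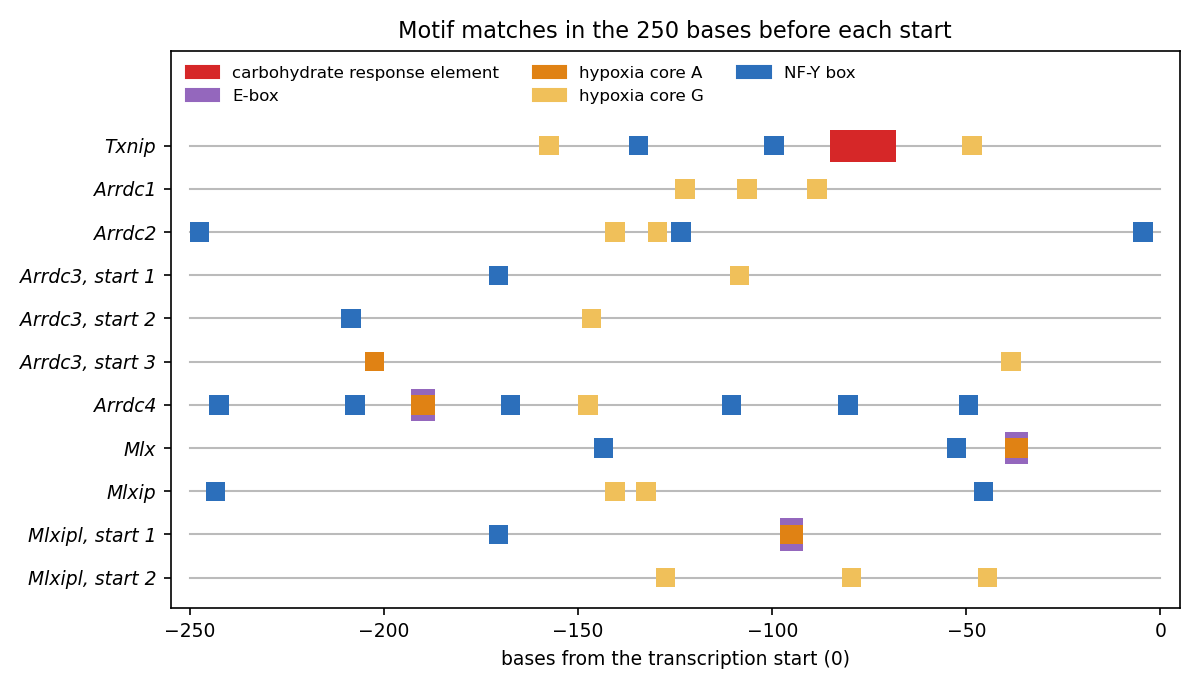
Motif matches along the 250 bases before each of the 11 RefSeq starts of the 8 genes, by distance in bases from the start; each coloured block is 1 match on either strand. The red carbohydrate response element stands before Txnip only, and Arrdc4 carries 1 E-box and 6 NF-Y boxes.

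The values that follow are FPKM (fragments scaled to transcript length and library size), with a single value for each gene in each condition that stands for its 3 samples. They carry no SD, and no value of a single sample was analysed here, so errors rest on the q of the authors' Cuffdiff test across all genes. The words rose and fell are kept for a q below 0.05 in the authors' deposited table. The depth of the libraries is unknown. Levels are of RNA from whole cultures, in which fewer cells of a type and less RNA per cell cannot be told apart. Of the fibroblast markers, all 10 were present, between 3.11 FPKM (Pdgfra) and 883 FPKM (Vim) in normoxia and between 3.22 FPKM (Pdgfra) and 2249 FPKM (Vim) in hypoxia. Of these markers 3 rose, Vim among them, and 5 fell, such as Col3a1 (328 to 182 FPKM) and Pdgfrb (10.9 to 6.58 FPKM), and their summed level was 2314 and 3668 FPKM. The epithelial genes Krt18 (313 and 443 FPKM in normoxia and hypoxia), Krt8 (28.3 and 10.1 FPKM), Epcam (5.97 and 5.22 FPKM) and Cdh1 (5.93 and 3.76 FPKM) were present as well. The 4 endothelial markers summed to 0.220 and 0.160 FPKM, the 4 leukocyte markers to 1.36 and 2.35 FPKM and the 5 markers of adipocytes and liver, where ChREBP is abundant, to 0.212 and 0.412 FPKM. Of the 3 muscle markers with a row, Des stood at 11.0 and 9.46 FPKM, Myod1 was listed at 0 in both groups and Myog at 0 in hypoxia. The part of these differences in the results was not tested.

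Txnip fell under low oxygen, while 2 of its arrestin-domain relatives and the MondoA gene rose. Its level went from 48.3 to 28.1 FPKM, that is, at 58.3% of its normoxic level. Arrdc1 went the other way by nearly the same factor, from 23.4 to 41.3 FPKM (1.76-fold). Arrdc3 rose 1.36-fold and Mlxip 1.23-fold, whereas Arrdc4, Mlx and Mlxipl were not called and Arrdc2 was listed at 0. In the authors' deposited table, 4 of the 7 tested genes were called, against 57.9% of all tested measurements. Of these, 3 rose, where 28.9% of all tested measurements rose, and 1 fell, where 29.0% fell. The share called was thus near that of the whole table. In the deposited values no member changed by as much as 2-fold, which 18.9% of the tested measurements did with a call.

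**Figure D2:**
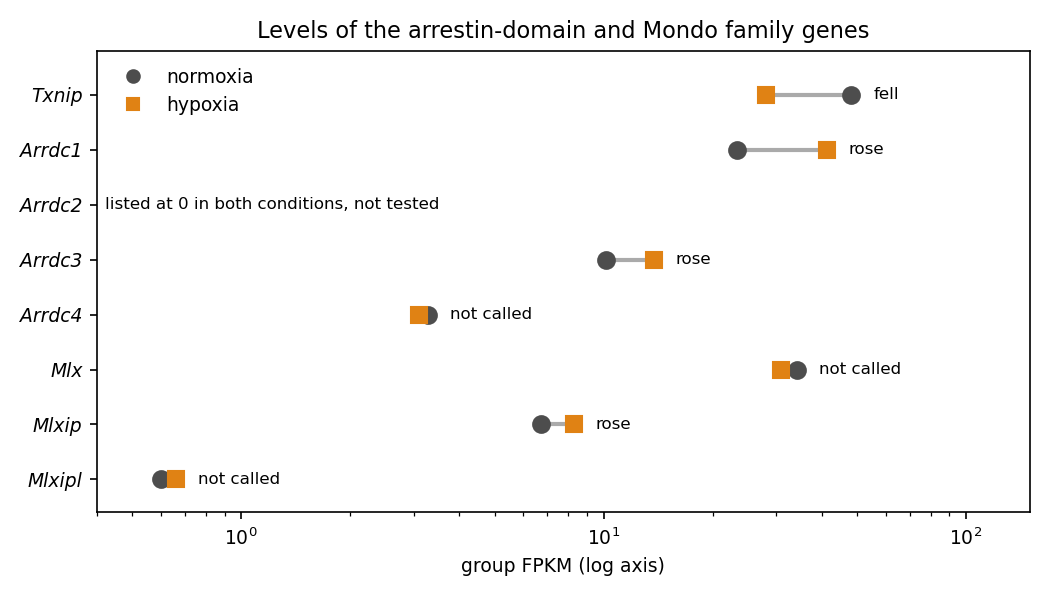
Group FPKM on a log axis of the 8 genes in normoxia (circles) and hypoxia (squares), with the authors' call at q below 0.05 beside each. Txnip moves from 48.3 to 28.1 FPKM and Arrdc1 from 23.4 to 41.3 FPKM, while the markers of Arrdc4, Mlx and Mlxipl lie close together.

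Txnip (chromosome 3, 96557957 to 96561883, plus strand, GRCm38) was the most abundant of the 8 genes in normoxia, when only 15.3% of the tested measurements had a higher level. Its log2 fold change was -0.78 (q = 0.000139 in the authors' deposited table, the smallest value there, shared by 5148 measurements). A lower log2 fold change was found for 17.4% of the tested measurements. The gene lies wholly inside the span of Gm15441, an antisense RNA on the opposite strand (96555765 to 96566801). Gm15441 stood at 1.22 FPKM under normal and 0.952 FPKM under low oxygen, with q = 0.903 in the authors' deposited table. The libraries preserve strand, but no source used here says whether the authors' counting used it, so the split of reads between the overlapping genes is uncertain. The genes nearest to Txnip in level over the 2 conditions, by Euclidean distance in log2 FPKM among 11705 other tested protein-coding genes, were Nmd3 (distance 0.025), Atp1b1 (0.043) and Spp1 (0.049), all of which fell in the authors' deposited table. With 2 conditions this likeness describes only a level and a fold.

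Among the other alpha-arrestins the levels moved in different ways. Arrdc1 (chromosome 2, 24925352 to 24935252, minus strand), whose protein recruits the budding machinery to the plasma membrane and releases vesicles, had a log2 fold change of 0.82 (q = 0.000139 in the authors' deposited table). Its fold change exceeded that of 84.9% of the tested measurements. Arrdc3 (chromosome 13, 80883384 to 80896042, plus strand), an adaptor for the traffic of beta-adrenergic receptors, rose from 10.1 to 13.7 FPKM (log2 fold change 0.44, q = 0.00369 in the authors' deposited table). Arrdc4 (chromosome 7, 68736995 to 68749241, minus strand), the other textbook MondoA target, stood at 3.27 FPKM in normoxic and 3.10 FPKM in hypoxic cells. Its log2 fold change of -0.08 had q = 0.713 in the authors' deposited table, and whether it differs from that of Txnip was not tested. Nearest to Arrdc4 in level over both conditions were Slc2a6, Mtrf1 and Iglon5, none of them called in the authors' deposited table.

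Arrdc2 (chromosome 8, 70835129 to 70839720, minus strand) was listed at 0 in both conditions and was not tested. The same holds for Arrdc5, the remaining gene of the family. A listed 0 is not proof of a silent gene here. Ndufs3, a subunit gene of respiratory complex I that respiring cells use, is also listed at 0 in both conditions, among 5677 of 20859 protein-coding measurements with a single gene name.

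The order of the alpha-arrestins differed between the conditions. Because FPKM is scaled to transcript length, levels can be set side by side within a condition, and such ratios do not depend on how the 2 groups were scaled against each other. In normoxia the level of Txnip was 2.06 times that of Arrdc1, and in hypoxia it was 0.682 times. Against Arrdc3 the ratio was 4.76 and 2.05, and against Arrdc4 it was 14.8 and 9.08. The summed level of the 5 genes was 85.1 FPKM in normoxia and 86.2 FPKM in hypoxia. Of this sum, Txnip made up 56.7% in normoxia and 32.6% in hypoxia, and Arrdc1 27.5% and 47.9%. Arrdc2 entered the sum at its listed 0, so the sum and these shares would differ if that gene is expressed. These ratios have no error, since each rests on group values, and no test between neighbours in the order was possible.

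The genes of the glucose-sensing factors had smaller fold changes than Txnip and Arrdc1. Mlxip (chromosome 5, 123394798 to 123457932, plus strand), which encodes MondoA, rose from 6.74 to 8.28 FPKM (log2 fold change 0.30, q = 0.0292 in the authors' deposited table). This q misses a threshold of 0.01, which 48.7% of all tested measurements passed, and at which 3 of the 8 genes were called. Mlx (chromosome 11, 101087277 to 101092207, plus strand), the common partner, was at 34.1 and 30.9 FPKM, a log2 fold change of -0.14 that had q = 0.393 in the authors' deposited table. Its last 385 bases overlap the end of Psmc3ip on the opposite strand, which fell from 21.9 to 11.5 FPKM, so reads there could belong to either gene. Mlxipl (chromosome 5, 135089890 to 135138382, plus strand), which encodes ChREBP, was at 0.600 and 0.661 FPKM, with q = 0.768 in the authors' deposited table. Within normoxia the order was Mlx, Mlxip and Mlxipl, with Mlx at 5.06 times the level of Mlxip and Mlxip at 11.2 times that of Mlxipl. The same order held in hypoxia, at 3.73 and 12.5 times.

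**Figure D3:**
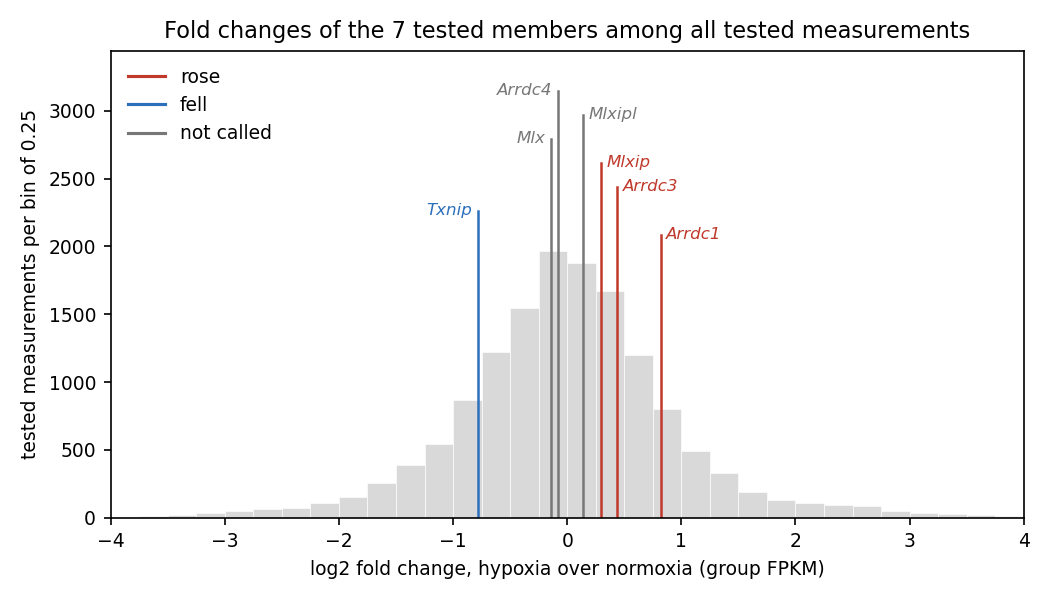
Number of tested measurements per bin of 0.25 in log2 fold change of hypoxia over normoxia (grey bars), with a line for each of the 7 tested genes coloured by the authors' call; line heights carry no value. Txnip at -0.78 and Arrdc1 at 0.82 lie on the shoulders of the distribution and the other 5 nearer its centre.

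The size of these changes depends on the scaling between the groups. The summed FPKM of all measurements was 1.17 times as high in hypoxia, so that setting the sums equal lowers every log2 fold change by 0.22. Relative to that shift, Txnip stood at -1.003, just past a 2-fold fall, Arrdc4 at -0.30 and Mlx at -0.37. Arrdc1 remained higher at 0.59 and Arrdc3 at 0.21, while Mlxip came to 0.07 and Mlxipl changed sign to -0.085. The median of ratios moved the values by only 0.0025. No q could be recomputed under either scaling.

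**Figure D4:**
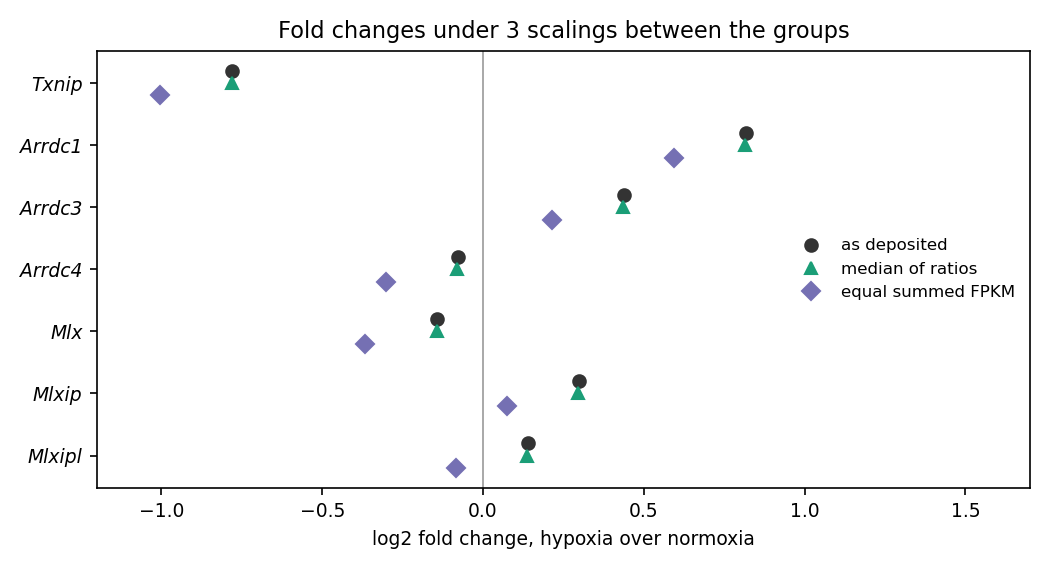
Log2 fold change of hypoxia over normoxia for the 7 tested genes as deposited (circles), after scaling by the median of ratios (triangles) and after setting the summed FPKM equal (diamonds). Txnip lies at -0.78 or lower under each, Arrdc1 at 0.59 or higher, and Mlxipl crosses 0.

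Most of the listed genes that bring glucose into the cell or act on glucose 6-phosphate, which the MondoA and ChREBP pairs sense, rose. Of 7 tested genes whose mean reached 1 FPKM, 5 rose and none fell in the authors' deposited table, which did not call the transporter gene Slc2a4 (2.37 and 3.25 FPKM) or G6pdx (52.4 and 55.2 FPKM). At that filter 62.9% of all tested measurements were called, 32.1% having risen and 30.9% fallen, and the counts of the lists that follow are to be read beside these shares. The transporter genes Slc2a3 and Slc2a1 rose 8.39-fold and 7.26-fold, the hexokinase genes Hk2 and Hk1 5.88-fold and 3.93-fold, and Gpi1, whose enzyme uses up glucose 6-phosphate in glycolysis, 5.47-fold. The list median, on the scale of log2(FPKM + 1), was 2.43, beside 0.0027 over all tested measurements past the filter. Txnip thus had its lower level in the condition in which these transcripts had their higher one, as did every tested measurement that fell (29.0%). Glucose uptake and glucose 6-phosphate were not measured here, and a link between these transcripts and Txnip was not tested.

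Genes named elsewhere as MondoA or ChREBP targets moved in both directions. Past the filter, 8 of 12 rose, 3 fell and 1 had no call in the authors' deposited table, with a median of 0.53. The glycolytic regulator gene Pfkfb3 rose from 11.9 to 71.1 FPKM and Hk2, also on the preceding list, from 9.08 to 53.4 FPKM. The lipogenic genes Elovl6 and Fasn fell, the first from 21.4 to 6.61 FPKM and the second from 101 to 43.1 FPKM. Not all lipogenic genes of the list did so. Acaca fell from 31.6 to 14.9 FPKM, but Scd1 rose from 164 to 234 FPKM and Me1 from 47.6 to 69.8 FPKM. Acly stood at 104 and 115 FPKM without a call (q = 0.167 in the authors' deposited table). Acaca, Scd1, Me1 and Acly were named after their values were seen. Several genes on this list answer to other regulators too, and 7 of its 21 genes, mostly of liver, were not tested. Among tested genes past the filter whose promoter window holds the carbohydrate response element, 22 of 56 rose (39.3%) and 16 fell (28.6%). Over all 8535 such genes with a promoter sequence, 32.3% rose and 32.2% fell. The other motifs gave 37.4% risen and 29.0% fallen of 2220 genes for ACGTG, and 34.9% and 30.8% of 4457 for GCGTG. For CACGTG the shares were 32.8% and 32.6% of 868 genes, and for CCAAT 33.0% and 31.8% of 3527. A higher share of risen genes was thus not particular to the carbohydrate response element, and differences between these shares were not tested. Genes to which the deposited annotation gives the term response to glucose split into 18 that rose and 16 that fell of 45, with a median of 0.012. For the term glucose homeostasis 29 rose and 18 fell of 66, with a median of 0.12. Over all tested measurements past the filter, 32.1% rose, 30.9% fell and the median was 0.0027.

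Other partners of MLX and of the related factor MAX mostly rose. Of 10 genes in this network 7 rose, 2 fell and 1 had no call in the authors' deposited table (median 0.41). The repressor genes Mxi1, Mnt and Mxd1 rose 4.01-fold, 2.69-fold and 2.13-fold. MNT and MXD1 can pair with MLX as well as with MAX. Mycn fell from 6.11 to 2.86 FPKM, and Myc went from 15.2 to 10.5 FPKM, also a called fall.

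Among the proteins with which alpha-arrestins act, the NEDD4 family ligase genes gave 4 that rose, none that fell and 3 not called of 7 (median 0.36). Smurf2, Nedd4l, Smurf1 and Itch rose between 1.29-fold (Itch) and 2.05-fold (Smurf2) in the authors' deposited table. ITCH is a ligase that ubiquitinates TXNIP. Other genes for arrestin-fold proteins, outside the alpha-arrestins, rose in 4 of 5 tested cases (median 0.52). These were Vps26b (2.26-fold), Dscr3 (1.63-fold) and Vps26a (1.28-fold), which encode subunits of endosomal sorting complexes, and the beta-arrestin gene Arrb2 (1.45-fold). Arrb1, the other beta-arrestin gene, was at 11.3 and 11.1 FPKM and was not called there (q = 0.958).

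The thioredoxin system, which TXNIP restrains, was divided between 2 genes that rose, 2 that fell and 1 not called of 5 (median -0.16). Txnrd1, the cytosolic thioredoxin reductase gene, fell from 84.1 to 33.7 FPKM and Txn2, the mitochondrial thioredoxin gene, from 129 to 77.9 FPKM. Txnl1 and Txnrd3 rose 1.92-fold and 1.77-fold. Txn1, whose product TXNIP binds and which was named after its values were seen, stood at 393 and 353 FPKM, without a call (q = 0.140 in the authors' deposited table). Its level was 8.15 times that of Txnip in normoxia and 12.5 times in hypoxia.

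Of AMPK, a kinase that marks TXNIP for degradation, the 5 subunit genes past the filter held 1 that rose, 2 that fell and 2 without a call (median -0.22), so that 3 of 5 were called, near the 62.9% of all tested measurements at this filter. Prkab2 rose from 5.41 to 19.5 FPKM, and Prkag2 and Prkag1 fell 1.95-fold and 1.28-fold. Genes related to FOXO factors and glucocorticoids, both known to act on Txnip or its relatives, rose in 10 of 14 cases and fell in 3, with 1 not called in the authors' deposited table (median 0.74). Ccng2 rose 6.45-fold, Foxo3 4.76-fold, Per1 3.60-fold and Sesn3 2.33-fold. Genes known to be induced by glucocorticoids moved both ways. Per1, Tsc22d3 (12.4 to 21.8 FPKM) and Klf9 (9.12 to 15.7 FPKM) rose, the last 2 being named after their values were seen. Sgk1 and Fkbp5 fell to 3.77 FPKM (from 8.76) and to 23.8 FPKM (from 47.1). Sesn1, the remaining gene of the list that fell, went from 20.1 to 10.8 FPKM and was named after its values were seen. With the summed FPKM set equal, the list medians were 2.21 for glucose entry, 0.30 for carbohydrate response targets, 0.20 for the MLX network, 0.14 for the NEDD4 family and 0.30 for other arrestin-fold proteins. They were -0.38 for the thioredoxin system, -0.44 for AMPK and 0.52 for the genes related to FOXO and glucocorticoids. Across the 8 lists 52 genes past the filter were called, where 62.9% of all tested measurements at this filter were called. None of these 52 changed sign under that scaling. Such changes of sign were rare in the whole table, at 28 of all called measurements, so their absence is not particular to the lists.

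**Figure D5:**
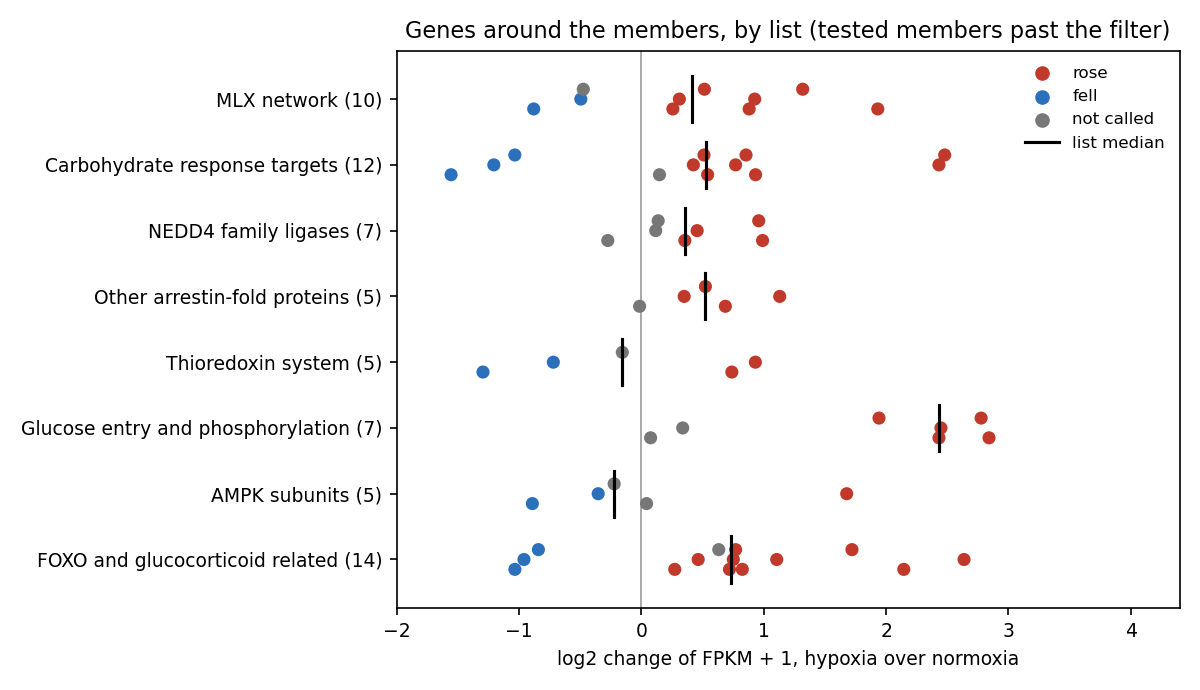
Log2 ratio of FPKM + 1, hypoxia to normoxia, of each tested gene past the filter of 1 FPKM, by list (the number of genes in parentheses), coloured by the authors' call, with the list median as a bar. The genes of glucose entry and phosphorylation have the highest of the 8 medians at 2.43 and all lie above 0. Each other list has genes on both sides of 0, and only the thioredoxin and AMPK lists have a median below 0.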

How the data were processed

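RNA was sequenced from poly-A selected, stranded libraries of 6 cultures, 3 per condition, which the series design describes as biological replicates. The submitters' processing notes name the aligner HISAT2 2.1.0, the assembler StringTie 1.3.4d, and Cufflinks with its Cuffdiff 2.2.1, on build GRCm38. The authors deposited 1 FPKM value per gene and group. Their table also gives the log2 fold change of hypoxia over normoxia, the p-value, the q-value and, unused, the score of their test, per the file headers. No source used here gives the authors' scaling of the libraries, and depth is unknown.

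Identical measurements listed for more than 1 identifier entered once (53207 rows, 51482 measurements). The deposited log2 values equalled the log2 ratio of the FPKM columns within 1.2e-05. Calls are the authors', at q below 0.05. No test was run here, since each group has 1 value. The fits planned for single samples were therefore not used. Counts over lists were made where the 2 groups averaged 1 FPKM or more, and list medians a pseudocount of 1, which understates the change of low genes. The counting step was run on simulated data in which changed and unchanged genes had p-values set far apart. That run checks the code only and bears on none of the calls.

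The members and the lists were chosen with earlier results of these data known. All 8 members were named, and from each list up to 4 called genes with the largest change and up to 2 against the majority, or all called where 5 or fewer were called. Gene positions are from GENCODE M21 on GRCm38, 1-based. Promoter windows are the 250 bases before each RefSeq start, and all 8 symbols matched. The counts by promoter motif and by annotation term were chosen after the data were seen. Alternatives were a q of 0.01, a 2-fold threshold, no filter or a filter of 5 FPKM, a pseudocount of 0.1, rescaling by the median of ratios or to equal sums, and measurements shared by overlapping genes. Python 3.11.15, pandas 2.3.3, numpy 2.4.6 and matplotlib 3.10.9 were used.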

Additional observations from a re-analysis of the deposited data

How the results depend on the processing

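No paired analysis was possible because the table holds 1 value per condition and no columns of single samples, and for the same reason no replicate could be left out. The 4 calls among the 8 genes became 0 when a 2-fold change in the deposited values was also required. At a q of 0.01 the count was 3, Mlxip being the one lost, and it was 4 with no filter and with a filter of 5 FPKM. The median log2 fold change of the 6 members past the filter was 0.11 and moved to -0.11 with equal sums. Under that scaling Mlxipl changed sign, from 0.14 to -0.085, and no q exists for the rescaled value. The count of AMPK subunit genes that rose was 1 with the filter and 2 without it, and the count that fell was 2 and 3. Over the 8 lists together, which name 86 distinct genes before the filter, 40 rose and 12 fell. Both counts stayed within 1.5 times of these at a q of 0.01, with no filter and with shared measurements. Past the filter, 32.1% of all tested measurements rose and 30.9% fell. The lists were chosen with earlier results of these data known, so their balance of rises and falls is not a result. Without depth or single-sample values, the spread behind a group value and a low value such as that of Mlxipl cannot be bounded here.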
